A study of Mus musculus with 32 samples.

Results

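Adipokines are hormones and other secreted factors of fat cells. The 8 genes described here encode leptin (Lep), adiponectin (Adipoq), resistin (Retn), adipsin (Cfd), retinol-binding protein 4 (Rbp4), visfatin (Nampt) and angiotensinogen (Agt), together with gamma-synuclein (Sncg), which is not secreted in the classical way but is abundant in white fat cells. They were chosen by symbol, and each gene was read from the brightest probe set annotated to that symbol alone. Of the 8 genes, 7 had such a probe set, and all 7 were bright enough to be tested, among 13016 tested genes of 18193 on the array. No probe set carried the symbol Cfd in the annotation used, so Cfd was not analysed here. Nampt had 3 probe sets and each other gene had 1, which makes 9 probe sets in all.

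Leptin circulates in proportion to fat mass and signals through its receptor to JAK2 and STAT3, with SOCS3 and the phosphatase encoded by Ptpn1 as brakes. Adiponectin acts through Adipor1, Adipor2 and T-cadherin (Cdh13), and unlike leptin its plasma level is known to fall as fat mass grows. Angiotensinogen is the precursor cut by renin and Ace to angiotensin, Rbp4 carries retinol, and Nampt makes the precursor of NAD and is used by immune cells as well as fat cells. The mesentery holds a large visceral fat depot, and it is the tissue in which pristane, an oil injected into the peritoneum, sets off a chronic granulomatous inflammation.

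The study placed mesenteric RNA on 32 arrays, 1 sample each. Treated mice were labelled BALB/c, DBA or BALB/DBA F1 and had received 0.5 ml pristane intraperitoneally 3 or 18 days before sampling, with no F1 group at day 18. Controls were untreated mice of the same label, and age, sex and the DBA substrain were not given in the sources used here. The codes in the sample titles form 3 series, called runs here: the day 3 run holds 3 treated and 3 control arrays for each of BALB/c, F1 and DBA, the BALB/c day 18 run holds 4 and 4, and the DBA day 18 run holds 3 and 3. What the codes mean is not stated, so every response was taken against controls of the same strain and run. The labels do not say that arrays are separate animals, so p-values describe the scatter of these arrays alone, which may be technical.

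Signals were scaled by the authors to a common trimmed mean on every array, and changes are differences of log2(signal + 24.9), which understates the change of a dim gene. A gene was called when limma's p-value, adjusted by Benjamini-Hochberg over the 13016 genes, was under 0.05. Within-group correlations between arrays ran from 0.958 to 0.987, apart from BALB/c control replicate 2 of the BALB/c day 18 run, whose best correlation was 0.863. Pancreatic acinar markers were high on 6 of the 8 arrays of that run, and their summed signal reached 713922 on that control against 841 on control replicate 1. Xist, an RNA made by female cells, was at 12274 or more on 21 arrays and at 120.1 or less on 11. All 3 treated F1 arrays were high and all 3 F1 controls were low, so treatment and sex cannot be told apart in the F1. Within each run, treated and control groups of both parents had the same number of high arrays. All parental arrays of the day 3 run were high. Each group had 2 high of 4 in the BALB/c day 18 run and 1 of 3 in the DBA day 18 run, so Xist also differs between runs. A term for Xist can be sized only from groups that mix high and low arrays, which are those of the day 18 runs. It is therefore no sex adjustment for the F1. Setting the treated F1 arrays against the parental controls of the day 3 run, an alternative used below, matches Xist but not strain.

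The promoters are printed for the 4 genes that carry the contrasts below: leptin and gamma-synuclein had the most negative changes of the 7 in DBA at day 18, angiotensinogen had its own in BALB/c at day 18, and adiponectin was called in 3 of the 5 responses. Each is the 250 bases before the gene's start, from RefSeq on GRCm38.p6, written 5′ to 3′ on the gene's strand. Lep is at chr6:29059971-29060220 on the plus strand, Sncg at chr14:34374670-34374919 on the minus strand, Adipoq at chr16:23146286-23146535 on the plus strand and Agt at chr8:124569707-124569956 on the minus strand. Capitals mark the matches to TATAAA (the TATA box), TTGCGCAA (the palindrome bound by C/EBP proteins) or TTNCNNAA (a loose form of it that includes every TTGCGCAA).
Lep: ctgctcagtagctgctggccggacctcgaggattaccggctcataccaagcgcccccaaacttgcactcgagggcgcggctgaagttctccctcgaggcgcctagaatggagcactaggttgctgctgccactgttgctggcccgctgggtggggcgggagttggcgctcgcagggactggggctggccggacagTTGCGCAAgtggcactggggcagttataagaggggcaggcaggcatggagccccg
Sncg: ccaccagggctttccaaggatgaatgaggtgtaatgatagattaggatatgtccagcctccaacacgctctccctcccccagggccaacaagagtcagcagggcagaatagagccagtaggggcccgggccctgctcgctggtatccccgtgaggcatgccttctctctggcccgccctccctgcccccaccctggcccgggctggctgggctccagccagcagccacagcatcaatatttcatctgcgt
Adipoq: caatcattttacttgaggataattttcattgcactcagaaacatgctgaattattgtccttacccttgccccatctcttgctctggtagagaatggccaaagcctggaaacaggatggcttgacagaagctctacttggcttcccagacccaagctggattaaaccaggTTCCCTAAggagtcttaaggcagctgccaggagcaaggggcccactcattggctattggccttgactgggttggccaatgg
Agt: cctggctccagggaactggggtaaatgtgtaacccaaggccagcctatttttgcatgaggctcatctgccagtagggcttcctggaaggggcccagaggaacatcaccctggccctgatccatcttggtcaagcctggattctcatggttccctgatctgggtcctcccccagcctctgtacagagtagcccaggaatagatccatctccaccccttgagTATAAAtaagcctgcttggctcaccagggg
All 8 genes, Cfd included, matched the RefSeq table, with 9 windows because Rbp4 has 2. The exact palindrome TTGCGCAA stood in the Lep window at -55 to -48 from the start and in no other of the 9, against 0.183% of 32851 windows of all genes. TTNCNNAA stood in 4 of the 9 windows (Lep, Adipoq and both of Rbp4), against 40.7% of all windows. TATAAA stood in the Agt window at -30 to -25 and in 1 Rbp4 window at -28 to -23, against 13.6%. All motifs were searched on both strands in windows of 300 bases, which add the 50 bases after the start. The perfect direct repeat with 1 base between, the form bound by PPARG with RXR, was in none of the 9 and in 0.0396% of all windows. The Nampt window was 75.6% G and C, against a median of 52.4%. These matches describe the letters only.

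Most of these genes were lower in the mesentery after pristane. Of 7 members tested, 6 fell in BALB/c at day 3 (all but Lep), 3 in the F1 at day 3 (Lep, Rbp4 and Sncg), 2 in DBA at day 3 (Retn and Rbp4), 6 in BALB/c at day 18 and 6 in DBA at day 18 (all but Nampt in both), and none rose in any of the 5. With 1 array left out these counts ran from 2 to 5, 0 to 4, 0 to 2, 5 to 6 and 4 to 6; the lowest at day 3 came without BALB/c control replicate 7, without F1 day 3 replicate 3 or F1 control replicate 2, and without DBA day 3 replicate 1 or DBA control replicate 6. Over all genes the share called was 35.5%, 36.5%, 29.8%, 43.9% and 47.4%, and the share called lower was 17.2%, 18.0%, 13.4%, 22.2% and 25.0%. The median change of the 7 members was -1.34, -1.02, -0.58, -1.32 and -1.68 on the log2 scale, against medians of -0.01, -0.04, 0.00, -0.03 and -0.04 over all tested genes. Every treated array lay below every control of its strain and run for 7, 6, 4, 5 and 5 of the members, against 27.6%, 26.4%, 24.4%, 15.1% and 32.9% of all genes. Rbp4 was called in all 5 responses and Retn and Sncg in 4. In bulk tissue scaled to a common trimmed mean, fewer fat cells, less RNA per fat cell and a larger share of RNA from other cells cannot be told apart.

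**Figure D1:**
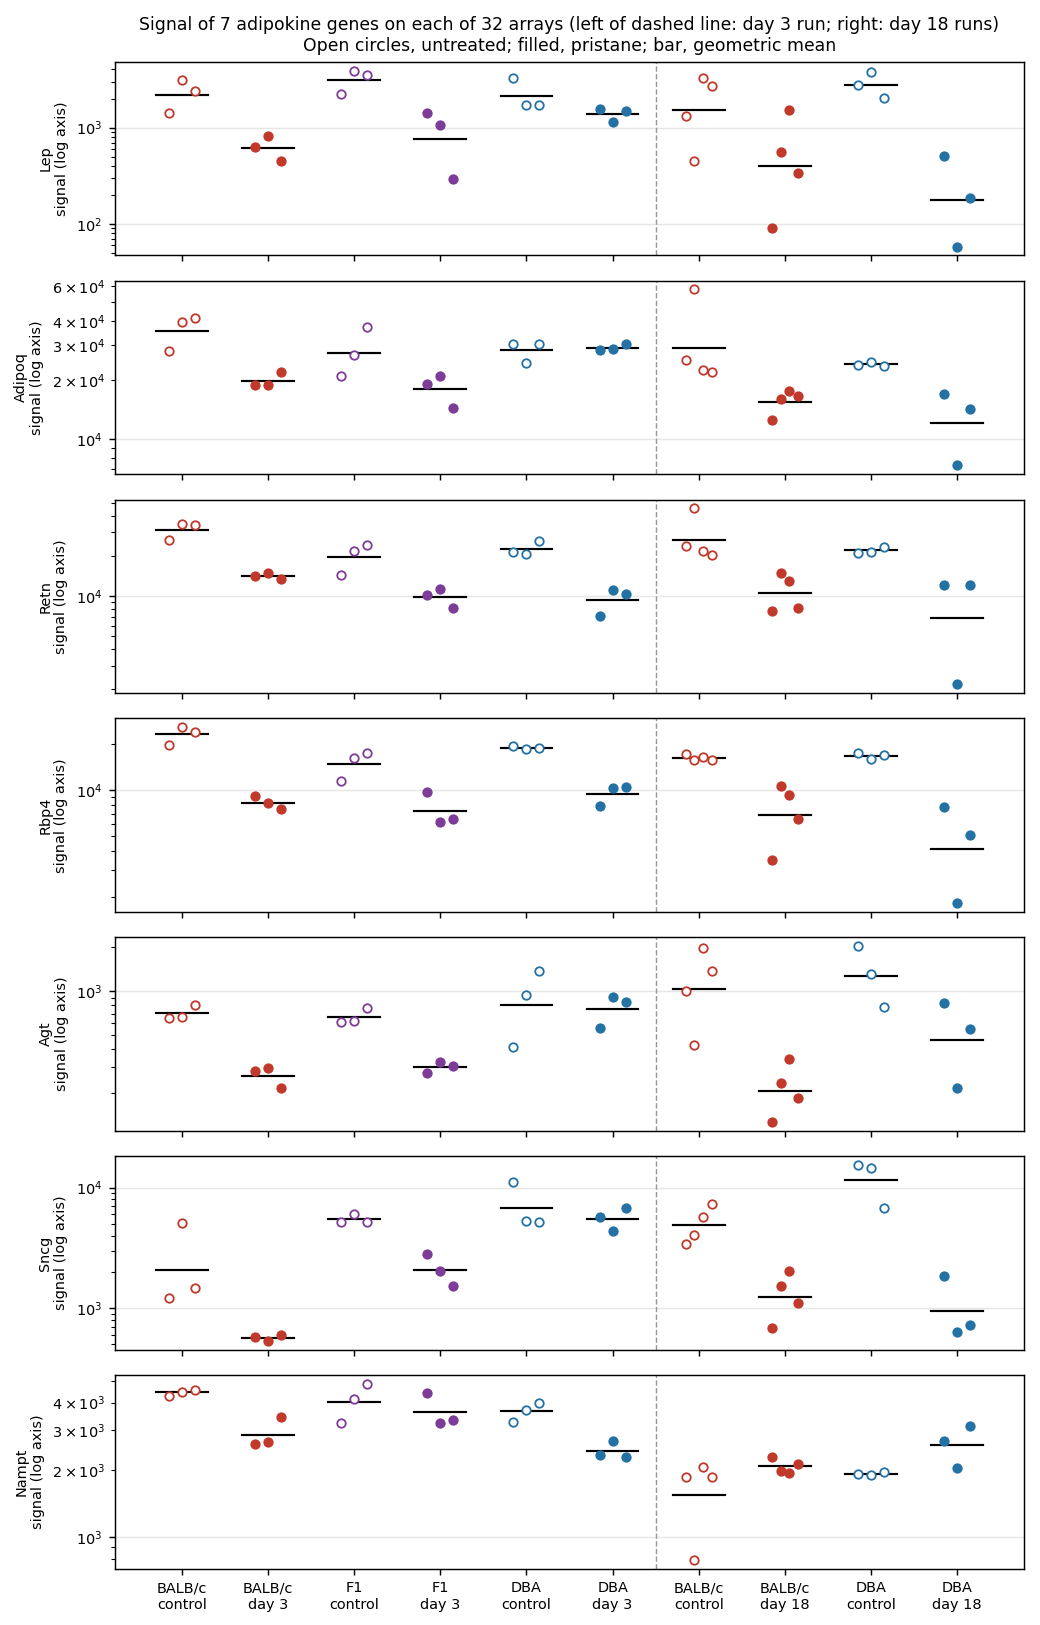
Signal of each adipokine gene on all 32 arrays (log axis), grouped by strain and treatment; open circles are untreated, filled circles pristane-treated, and bars are geometric means. In the DBA day 18 run the treated Lep signals lie between 58.4 and 503, below controls between 2037 and 3777, and in the Nampt panel the controls of both day 18 runs lie below those of the same strain in the day 3 run.

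Markers of fat cells and of other cell types were read on the same arrays. Of 10 tested adipocyte markers, 8 fell in BALB/c at day 3, 7 in the F1, 0 in DBA at day 3, 10 in BALB/c at day 18 and 9 in DBA at day 18, with median changes of -1.27, -0.99, -0.53, -1.19 and -1.96. Their summed signal ran from 29112 to 75699 on treated DBA day 18 arrays and from 132298 to 134594 on their controls. At day 3 the DBA sums ran from 125784 to 141743 on treated arrays and from 141801 to 182599 on controls, so the groups just failed to overlap. Of 8 monocyte and macrophage markers 7, 7, 8, 8 and 8 rose, and of 8 neutrophil markers 6, 5, 4, 8 and 8. These counts stand against shares over all genes of 29.8% to 47.4% called and 13.4% to 25.0% called lower in the 5 responses. Of all 13016 genes, 2131 to 2911 were called higher. The macrophage sums ran from 56256 to 81300 on treated arrays and from 23501 to 35733 on controls. Of 6 endothelial markers 4, 5, 2, 4 and 6 fell. Of 6 acinar and 7 neuronal and glial markers, none was called in any response except Sox10, which fell in BALB/c at day 18 (-0.50 ± 0.20, adjusted p = 0.0416). Of 2 tested hepatocyte markers, Alb fell in the F1 at day 3 and in both day 18 responses. Mesothelial markers went both ways, with Wt1 up in all 5 responses and Upk3b down in 3. The part of any of these cell types in the members' changes was not tested.

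Leptin showed its steepest decline in DBA mice at day 18. The signals were 503, 58.4 and 188 on the treated arrays and 2749, 3777 and 2037 on their controls. The groups lay far apart, and treated replicate 2 was below 104, the signal used as the limit for dim genes. The change was -3.73 ± 0.73 (SE; adjusted p = 1.4e-04), a 13.2-fold lower level, and it stayed called when any single array of the comparison was left out, with changes from -4.39 to -3.06.

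In BALB/c mice at day 18 the treated Lep signals were 90.9, 552, 1522 and 338, and the controls 1306, 453, 3242 and 2698. Here the groups overlapped: treated replicate 3 was above control replicates 1 and 2, and control replicate 2 was the array with the high acinar signal. The change was -1.81 ± 0.63 (adjusted p = 0.0218). The call was lost without treated replicate 1 (-1.17, adjusted p = 0.138), treated replicate 4 (-1.72, 0.0522), control replicate 3 (-1.45, 0.0836) or control replicate 4 (-1.54, 0.0717), and in a fit on this run alone (0.140). Without the 6 acinar-high arrays, which leaves 1 array on each side and assumes that it varies like the other groups, the change was -3.52 (adjusted p = 0.00586).

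At day 3, BALB/c Lep signals were 626, 810.4 and 446 after pristane and 1432, 3097 and 2402 in controls. The F1 signals were 1429, 1062 and 294 against 2213, 3893 and 3523, and the DBA signals 1572, 1155 and 1473 against 3224, 1721 and 1696. In all 3 strains every treated array was below every control of its strain. The changes were -1.81 ± 0.73 in BALB/c (adjusted p = 0.0551, not called), -1.98 ± 0.73 in the F1 (0.0348) and -0.60 ± 0.73 in DBA (0.591, not called). The BALB/c change passed under a stricter dim filter (0.0474), in a separate fit (8.2e-04) and with a term for Xist (0.0334). The F1 call was lost without treated replicate 3 (-1.32, 0.218), control replicate 2 (-1.82, 0.102) or control replicate 3 (-1.90, 0.0836), with an ordinary linear model (0.0539), with the Xist term (-0.83, 0.471) and against the parental controls of the same run (-1.46, 0.0612).

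Ordered by group mean, Lep ran from 249.6 ± 228 (SD, n = 3) in treated DBA at day 18 through 626 ± 626 (n = 4) in treated BALB/c at day 18, 627 ± 183 (n = 3) in treated BALB/c at day 3, 928 ± 579 in the treated F1 and 1400.1 ± 218 in treated DBA at day 3. The 5 control means followed, from 1925 ± 1275 (n = 4) in BALB/c of the day 18 run to 3209 ± 883 (n = 3) in the F1. Every neighbouring pair in this order overlapped in its single values. Among untreated mice of the day 3 run, DBA and BALB/c did not differ detectably in Lep (-0.06 ± 0.73, adjusted p = 0.986).

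Adiponectin fell in BALB/c at both times and in DBA at day 18. In BALB/c at day 3 its signals were 18772, 18758 and 22018 after pristane and 27989, 39421 and 41133 in controls. In DBA at day 18 they were 17004, 7331 and 14249 against 23745, 24694 and 23470.3. In BALB/c at day 18 they were 12452, 15976, 17568 and 16584 against 25116, 57721, 22498 and 22038. No treated array reached its controls in these 3 comparisons, and BALB/c control replicate 2 was the highest of all 32 arrays. The changes were -0.85 ± 0.29 (adjusted p = 0.0226), -0.98 ± 0.29 (0.00631) and -0.91 ± 0.25 (0.00433). The F1 change at day 3 was -0.62 ± 0.29 (0.0971, not called), with treated signals from 14364 to 21032 and controls from 21049.8 to 36974.

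DBA mice at day 3 had Adipoq signals of 28272, 28764 and 30464 after pristane and 30514, 24516 and 30389.8 in controls, with a change of 0.04 ± 0.29 (adjusted p = 0.936) whose 95% interval ran from -0.52 to 0.61. The sign of this value turned with quantile normalization (-0.11), median centring (-0.01) and without control replicate 5 (-0.06). The difference between the BALB/c and DBA responses at day 3 was -0.89 ± 0.41 (0.470) and that between the F1 and DBA -0.66 ± 0.41 (0.558), neither called. The BALB/c day 3 call was lost without treated replicate 1 or 2 (both -0.81) or control replicate 6 (-0.78) or 7 (-0.75), with adjusted p from 0.0640 to 0.0868. The DBA day 18 call was lost without treated replicate 2 (-0.62, 0.0875), the array with the lowest summed adipocyte markers (29112). The BALB/c day 18 call was lost in a separate fit (0.0567) and without the acinar-high arrays (-1.01, 0.0656).

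Resistin, which in mice is made by fat cells, fell in BALB/c and DBA at both times and was not called in the F1. At day 3 the treated signals ran from 13444 to 14985 in BALB/c, 8135 to 11249 in the F1 and 7098 to 11035 in DBA, against controls from 26399 to 34551, 14406 to 24252 and 20644 to 25778. At day 18 they ran from 7688 to 14997 in BALB/c against 20333 to 45453, and in DBA they were 11999, 2177 and 12109.6 against 21093, 21389.6 and 23455. No treated array reached its controls in any of the 5 comparisons. The changes at day 3 were -1.15 ± 0.41 in BALB/c (adjusted p = 0.0299), -1.0 ± 0.41 in the F1 (0.0585, not called) and -1.27 ± 0.41 in DBA (0.0204), and those at day 18 were -1.32 ± 0.36 in BALB/c (0.00375) and -1.68 ± 0.41 in DBA (0.00138).

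Resistin was 1 of the members that fell in DBA at day 3, where Lep, Adipoq, Agt and Sncg were not called. The BALB/c day 3 call was lost without any 1 of treated replicates 1 to 3 or control replicates 6 and 7 (-1.19 to -1.09, adjusted p 0.0560 to 0.0849) and with quantile normalization (-0.83, 0.0923). The DBA day 3 call was lost without treated replicate 1 (-1.07, 0.104) or control replicate 6 (-1.17, 0.0709). Without the acinar-high arrays the BALB/c day 18 change was -1.61 (0.0859). The F1 change passed in a separate fit (0.00996), with the Xist term (-1.49, 0.0211), against the parental controls (-1.44, 0.00157) and without control replicate 1 (-1.22, 0.0415). The Xist term takes its size from other groups and is no sex adjustment in the F1. Without DBA day 18 replicate 2, the low array, the DBA day 18 change was -0.86 and still called (0.0199). Retnla, the other tested resistin family gene, which alternatively activated macrophages make, was not called at day 3 (0.41 in BALB/c, -0.75 in the F1 and 0.43 in DBA) and fell at day 18 (-1.35 ± 0.39 in BALB/c and -1.28 ± 0.45 in DBA).

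Rbp4, the plasma carrier of retinol, was the member called in all 5 responses. In DBA at day 18 the signals were 7686, 1825 and 5059 after pristane and 17439, 15795 and 16976 in controls. In BALB/c at day 3 they were 9176, 8188 and 7517 against 19660.3, 25561 and 23968. Every treated array lay below every control of its strain and run in all 5 comparisons. The changes were -1.47 ± 0.34 in BALB/c (adjusted p = 0.00143), -1.02 ± 0.34 in the F1 (0.0219) and -0.99 ± 0.34 in DBA (0.0309) at day 3, and at day 18 -1.24 ± 0.30 in BALB/c (0.00135) and -2.01 ± 0.34 in DBA (2.8e-05). Between the DBA times the response differed by -1.02 ± 0.49, which was not called (0.262).

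The Rbp4 calls of BALB/c at both times and of DBA at day 18 held under every alternative run. The DBA day 3 call was lost without any 1 of treated replicates 1 and 2 and control replicates 4, 5 and 6 (-1.05 to -0.85, adjusted p 0.0509 to 0.130). The F1 call was lost without treated replicate 2 or 3 or control replicate 2 or 3 (-0.95 to -0.90, 0.0696 to 0.0799) and with the Xist term (-1.02, 0.0760). Of 11 tested genes of retinoid handling, 5, 3, 3, 4 and 5 rose and 2, 2, 1, 3 and 3 fell in the 5 responses, with medians of 0.68, -0.05, 0.25, 0.12 and 0.16 against all-gene medians between -0.04 and 0.00 and 29.8% to 47.4% of all genes called. Rdh10, which oxidizes retinol, rose in all 5 (2.07 to 2.81), as did Aldh1a2, which makes retinoic acid (0.57 to 1.25), while Rbp7, a retinol-binding protein of fat and endothelium, fell in all 5 (-2.70 to -1.24). Stra6, the receptor that takes up retinol from Rbp4, rose at day 18 in BALB/c (1.45 ± 0.39) and DBA (1.75 ± 0.45).

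Angiotensinogen had its largest change in BALB/c at day 18. The treated signals were 126, 232, 342 and 184 and the controls 1004, 427, 1979.7 and 1379. All treated arrays were lower, and the lowest control was again replicate 2. The change was -2.19 ± 0.40 (adjusted p = 6.4e-05), a 4.57-fold lower level, and it was called under all 20 alternatives, from -2.77 to -1.89.

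In BALB/c at day 3 Agt fell from signals of 652, 668 and 801 to 281, 297 and 218 (-1.34 ± 0.46, adjusted p = 0.0233), a call lost without treated replicate 3 (-1.22, 0.0789) or control replicate 7 (-1.25, 0.0718). The F1 signals of 275, 328 and 308 were all below the controls of 609, 619 and 764, but the change of -1.06 ± 0.46 was not called (0.0707). It passed in a separate fit (8.4e-04) and against the parental controls (-1.25, 0.0110). DBA mice at day 3 had treated signals of 556, 904 and 835, within the controls of 412, 934 and 1362 (-0.11 ± 0.46, 0.893), and the sign turned without treated replicate 1 (0.10) or control replicate 6 (0.26). Their day 18 signals were 822, 217 and 549.7 against 2030.4, 1303 and 773, with 1 treated array above the lowest control. That change was -1.40 ± 0.46 (0.0132) and lost its call without treated replicate 2 (-0.89, 0.137) or control replicate 1 (-1.07, 0.0879).

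Of 5 other tested genes of the renin-angiotensin system, 0, 0, 1, 1 and 1 rose and 3, 3, 2, 2 and 3 fell, where 35.5%, 36.5%, 29.8%, 43.9% and 47.4% of all genes were called, with medians from -1.0 in DBA at day 18 to -0.06 in BALB/c at day 18. Enpep, which trims angiotensin, fell in all 5 responses (-1.84 to -0.81), and Mme, another angiotensin-cleaving peptidase, fell in 4 (-1.53 to -0.76) but was at -0.06 in BALB/c at day 18. Ace fell at day 3 in BALB/c (-0.47 ± 0.17) and the F1 (-0.53 ± 0.17). The receptor gene Agtr1a fell at day 18 in BALB/c (-0.36 ± 0.15, adjusted p = 0.0493) and DBA (-1.0 ± 0.17, 2.3e-05). Atp6ap2, the renin receptor, rose in DBA at both times (0.68 and 0.96) and in BALB/c at day 18 (0.54).

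Gamma-synuclein had the most negative difference between the DBA times of all genes tested. At day 3 its DBA signals were 5714, 4348 and 6714 after pristane and 11048, 5297 and 5169 in controls, and the groups overlapped. At day 18 they were 1841, 627 and 724 after pristane and 15424, 14512 and 6743 in controls. The highest treated array at day 18 was thus well below the lowest control. The responses were -0.29 ± 0.46 at day 3 (adjusted p = 0.695) and -3.57 ± 0.46 at day 18 (5.6e-07), an 11.9-fold lower level.

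The difference between these DBA responses, -3.28 ± 0.65 (adjusted p = 0.00388), was the lowest of all 13016 genes, and Sncg was the only member called in that comparison, in which 4.19% of genes were called and 1.72% were called lower. It was called under all 23 alternatives, with changes from -3.76 to -3.00 and adjusted p from 8.8e-04 to 0.0175. The 10 adipocyte markers had a median difference of -1.30 in the same comparison, with 0 called, and Lep had -3.13 ± 1.03 (0.0838, not called). Lep passed in a separate fit (0.0257) and without DBA day 18 replicate 1 (-3.79, 0.0274). The neuronal and glial markers, of interest because neurons also express Sncg, had a median difference of -0.26 with 0 of 7 called. Their summed signal in the DBA day 18 run was 1232 to 1743 on treated arrays and 2314 to 3787 on controls, and their part in the Sncg value was not tested. The times also differ by run, so time and run cannot be told apart beyond the use of controls from each run. Xist differed too: all DBA arrays of the day 3 run were high, against 1 of 3 in each group of the DBA day 18 run.

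BALB/c mice had Sncg signals of 575, 533 and 595 after pristane and 1205, 5064 and 1454 in controls at day 3, where control replicate 6 stood high. At day 18 they had 685, 1532, 2036 and 1112 against 3422, 4037, 5734 and 7319. The F1 had 2796, 2037 and 1534 against 5221, 6041 and 5206. All treated arrays were lower in these 3 comparisons. The changes were -1.83 ± 0.46 (adjusted p = 0.00271), -1.96 ± 0.40 (2.5e-04) and -1.40 ± 0.46 (0.0185), and without BALB/c control replicate 6 the first was -1.19 and still called (0.0438). The F1 call was lost without treated replicate 3 (-1.19, 0.0867) or control replicate 2 (-1.33, 0.0581), with the Xist term (-0.66, 0.352) and against the parental controls (-0.85, 0.0828). The BALB/c response did not differ detectably between times (-0.13 ± 0.61, 95% interval -1.33 to 1.06).

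Untreated DBA mice of the day 3 run had more Sncg than untreated BALB/c mice, by 1.68 ± 0.46 (adjusted p = 0.0219), a 3.21-fold higher level with no overlap. It was 1 member of 7 called in that comparison, in which 7.66% of genes were called and 4.02% were called higher, and it uses the same control arrays as the day 3 responses. The call was lost without BALB/c control replicate 5 (1.30, 0.153), BALB/c control replicate 7 (1.43, 0.125) or DBA control replicate 4 (1.32, 0.142) and in a separate fit (0.0688). The 3 F1 controls, from 5206 to 6041, lay above all 3 BALB/c controls of that run and within the range of the DBA controls. These F1 controls were all low in Xist and the parental controls all high, so strain and sex cannot be told apart there. Sncb, the other tested synuclein gene, was not called in any response (-0.36 to 0.35), and at day 18 in DBA it was at -0.05 ± 0.34.

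Sncg also showed the widest range among untreated groups. The control means were 2574 ± 2159 (n = 3) in BALB/c of the day 3 run, 5128 ± 1758 (n = 4) in BALB/c of the day 18 run, 5489 ± 478 in the F1, 7171 ± 3358 in DBA of the day 3 run and 12226 ± 4771 in DBA of the day 18 run. Every neighbouring pair in that order overlapped in its single values. The treated means were 568 ± 31.75 in BALB/c at day 3, 1064 ± 675 in DBA at day 18, 1341 ± 578 in BALB/c at day 18, 2122 ± 635 in the F1 and 5592 ± 1188 in DBA at day 3, and the lowest and the highest of these groups did not overlap with their neighbours. Between the BALB/c control runs Sncg was higher in the day 18 run by 1.23 ± 0.43 (adjusted p = 0.0355), a call lost without BALB/c control replicate 3 (1.16, 0.0666), 4 (1.04, 0.0922), 5 (0.85, 0.207) or 7 (0.98, 0.163). It was also lost with median centring (1.03, 0.0777), in a separate fit (0.195), with an ordinary linear model (0.0544) and with the Xist term (0.86, 0.122). All 3 BALB/c controls of the day 3 run were high in Xist, against 2 of 4 in the day 18 run.

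Nampt, the enzyme that salvages nicotinamide for NAD, fell in BALB/c at day 3 and was called in no other response. In BALB/c at day 3 its signals were 2599, 2652 and 3453 after pristane and 4269, 4481 and 4562 in controls, all lower (-0.62 ± 0.23, adjusted p = 0.0343). The DBA signals at day 3 were 2326, 2695 and 2280.3 against 3275, 3714 and 3999.5, also all lower (-0.58 ± 0.23, 0.0535, not called). In the F1 they were 4408, 3238 and 3328 against 3253, 4151 and 4848 and overlapped (-0.15 ± 0.23, 0.636). At day 18 the point estimates were above 0: in BALB/c 2292, 1980.4, 1943 and 2124 against 1854, 791, 2056 and 1852 (0.43 ± 0.20, 0.0804), and in DBA 2703, 2034 and 3151 against 1911, 1901 and 1964 (0.42 ± 0.23, 0.131). The DBA treated arrays were all higher, which 28.6% of genes showed in that comparison, and neither day 18 change was called.

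The Nampt call in BALB/c at day 3 was lost without treated replicate 1 (-0.55, adjusted p = 0.116) or 2 (-0.56, 0.104), without control replicate 5 (-0.65, 0.0582), 6 (-0.61, 0.0786) or 7 (-0.60, 0.0830), and with median centring (-0.67, 0.0624). The BALB/c day 18 change passed without control replicate 3 (0.57, 0.0273). The other probe sets differed in part: 1448607_at gave -0.86 (2.6e-04), -0.25 and -0.79 (8.7e-04) at day 3 in BALB/c, the F1 and DBA, and -0.25 and 0.07 at day 18 in BALB/c and DBA. Probe set 1455320_at gave -0.56 (0.0576), -0.21 and -0.88 (0.00471), then 0.30 and 0.17. All 3 probe sets thus lay below 0 in the 3 day 3 responses, and at day 18 in BALB/c they disagreed in sign.

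The day 18 values rest on different control levels. Nampt control means were 4437 ± 151 and 1639 ± 573 in BALB/c of the day 3 and day 18 runs, and 3663 ± 365 and 1925 ± 33.75 in DBA. The day 18 run was lower by -1.51 ± 0.21 in BALB/c (adjusted p = 1.5e-05) and by -0.91 ± 0.23 in DBA (0.00340). On this brightest probe set, every control of the day 18 run lay below every control of the day 3 run in both strains. Probe set 1455320_at had the same order in both strains. With 1448607_at the BALB/c controls did not overlap, but their means were closer, at 333 and 257. Its DBA controls overlapped, from 304.5 to 363 in the day 3 run and from 243 to 327 in the day 18 run. Of the 7 members, 2 were called between the BALB/c control runs (Nampt and Sncg, where 26.4% of genes were called) and 1 between the DBA control runs (Nampt, 29.5%). Without BALB/c control replicate 2 the BALB/c value was -1.20 and still called. The difference between the day 18 and day 3 responses was 1.05 ± 0.30 in BALB/c (0.130) and 1.01 ± 0.32 in DBA (0.0723), neither called. The DBA value passed in a separate fit (0.0142) and as a mean over probe sets (0.97, 0.0271). The control runs also differ in Xist: BALB/c and DBA controls of the day 3 run were all high. In the day 18 runs 2 of 4 BALB/c controls and 1 of 3 DBA controls were high. What set the level of the control runs was not tested.

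Of 10 tested genes of NAD salvage, 0, 0, 0, 2 and 0 rose and 2, 1, 3, 2 and 4 fell, with medians from -0.39 to -0.03. The share called lower over all genes was 17.2%, 18.0%, 13.4%, 22.2% and 25.0%, so these counts lie near the background. Sirt3, an NAD-dependent deacetylase of mitochondria, fell in all 5 responses (-1.19 to -0.62). Nnmt, which methylates nicotinamide and is abundant in fat, fell at day 18 in BALB/c (-0.96 ± 0.16) and DBA (-0.67 ± 0.18).

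**Figure D2:**
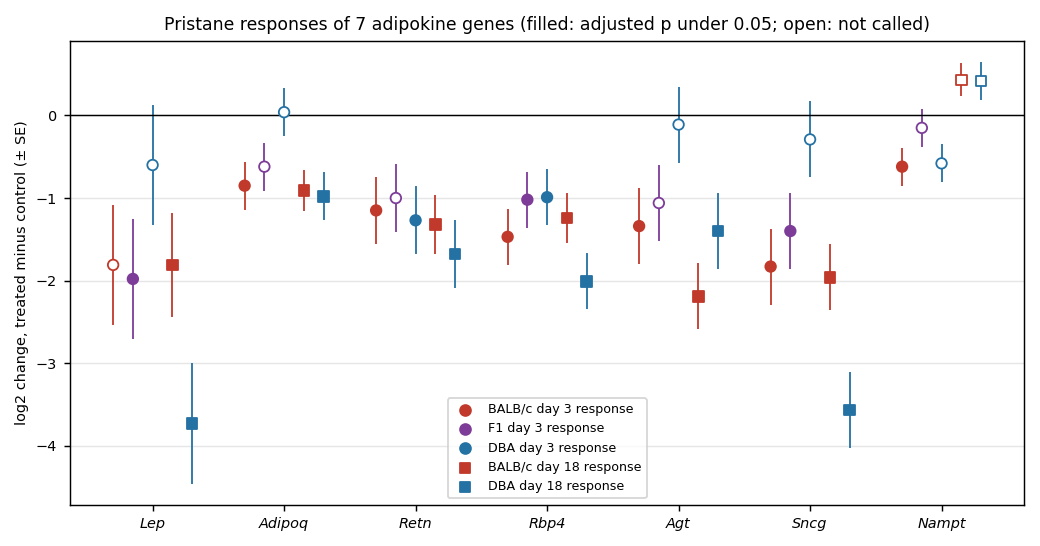
Change of each gene in the 5 responses, treated minus control on the log2(signal + 24.9) scale, with SE; filled symbols passed the adjusted p of 0.05 and open symbols did not. The lowest points are Lep (-3.73) and Sncg (-3.57) in DBA at day 18, and Nampt alone has both of its day 18 points above 0.

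The strains and times were then compared response against response. None of the 7 members was called by limma between BALB/c and DBA at day 3 (0.499% of genes called; 2 members at an unadjusted p under 0.05), between the F1 and BALB/c (0.223%; 0 members), between the F1 and DBA (2.02%; 0 members), between BALB/c and DBA at day 18 (0.983%; 1 member) or between BALB/c times (0.361%; 1 member). An ordinary linear model also called 0 in each of these 5. The 2 at day 3 were Adipoq (-0.89 ± 0.41) and Sncg (-1.54 ± 0.65, adjusted p = 0.414), both lower in BALB/c. The 1 at day 18 was Sncg, whose response was less negative in BALB/c by 1.61 ± 0.61 (0.198), and Lep had 1.92 ± 0.97 (0.325). The 1 between BALB/c times was Nampt. In a separate fit 1 member was called between BALB/c and DBA at day 3. The wide intervals do not show that the strains respond alike: for Lep at day 3, BALB/c minus DBA ran from -3.24 to 0.81.

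The changes were also set against the adipocyte markers of the same array, as each member's log2 level minus the mean log2 level of the 10 markers. This difference is given without a test. Adipoq was higher against the markers after pristane by 0.44 in BALB/c, 0.45 in the F1 and 0.57 in DBA at day 3 and by 0.90 in DBA at day 18, each without overlap, and by 0.26 with overlap in BALB/c at day 18. Lep stood at -0.92 in the F1 and -1.84 in DBA at day 18 without overlap, and its other values were -0.52, -0.07 and -0.64 with overlap. At day 18 Sncg stood at -0.79 (BALB/c) and -1.68 (DBA), both without overlap. In DBA at day 18, where the marker mean itself changed by -1.88, Adipoq thus lay above that mean and Lep and Sncg below it. The markers were uneven, however, from -3.06 (Aqp7) to -0.69 (Fabp4) in that response. Adipoq (-0.98) changed much as Lpl (-0.92) and Fabp4 did there. The same held in DBA at day 3, with Adipoq at 0.04, Lpl at 0.04 and Fabp4 at 0.07. A rise of Adipoq against the mean is therefore not a rise against each marker.

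Rbp4 and Retn kept close to the markers in 4 of 5 responses, from -0.18 to 0.20. In DBA at day 3 they stood at -0.46 and -0.74 against the markers, in both cases without overlap. Agt was at -1.02 in BALB/c at day 18 and at 0.48 in DBA at day 18, both with overlap. Nampt was higher against the markers by 0.67, 0.91, 1.60 and 2.31 in the BALB/c day 3, F1, BALB/c day 18 and DBA day 18 responses, without overlap, and at -0.05 in DBA at day 3.

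**Figure D3:**
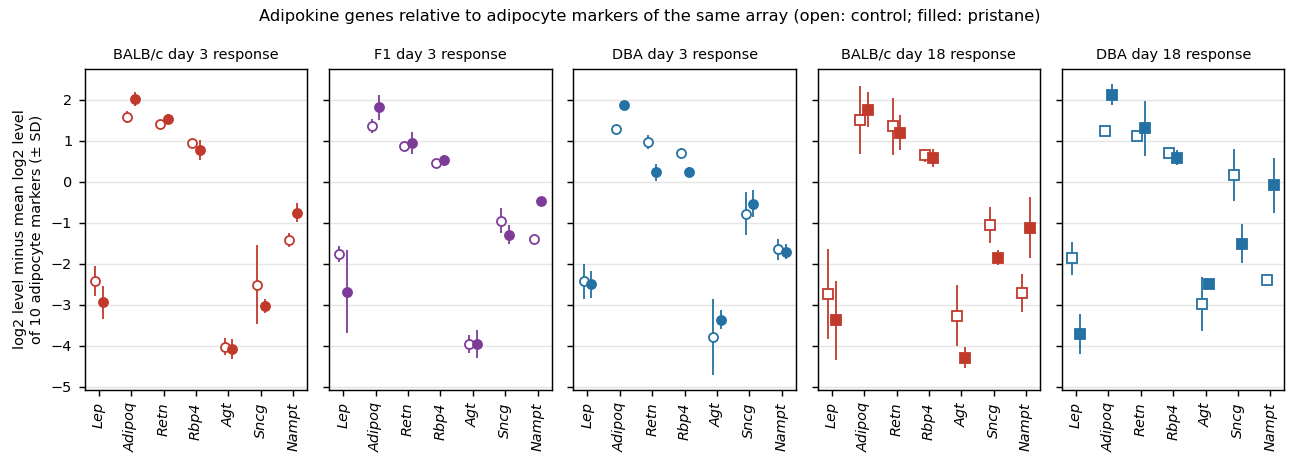
Each gene's log2 level minus the mean log2 level of 10 adipocyte markers on the same array, as mean ± SD of the untreated (open) and treated (filled) arrays of each response. Heights are not comparable between genes, because each has its own probe set; within a gene, Adipoq moves up by 0.90 and Sncg down by 1.68 in the DBA day 18 panel.

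Likeness between genes over the arrays is given as a description. On the 32 arrays, whose levels share treatment, strain and run, the genes most like Lep were Ehd2 (Pearson r = 0.939), Aqp7 (0.934), Slc1a5 (0.933), Fgfrl1 (0.931) and Lgals12 (0.930). Those most like Adipoq were Lpl (0.987), Cyp2e1 (0.976), Gsn (0.965), Fabp4 (0.957) and Hadh (0.944), and those most like Nampt were Mir22hg (0.854), Tspan4 (0.843), Fam174a (0.841), Snw1 (0.836) and Cdc73 (0.836). On deviations from the mean of each group in its run, Lep was most like Rhof (0.908), Rgcc (0.902), Npr3 (0.899), Fgfrl1 and Slc1a5, and Adipoq most like Cyp2e1 (0.975), Lpl (0.973), Gsn (0.955), Scd1 and Fabp4. For Nampt they were Phf6 (0.898), Xdh (0.892), Tapbp (0.887), Mob1a and Dpysl2, and these r values lay between 0.663 and 0.721 without BALB/c control replicate 2. With the mean log2 level of the adipocyte markers, deviations correlated at 0.94 for Rbp4, 0.81 for Lep, 0.70 for Retn, 0.63 for Sncg, 0.60 for Agt, 0.51 for Adipoq and 0.33 for Nampt (32 arrays each). Other marker lists gave larger values for some members: Agt had 0.75 with endothelial and 0.65 with mesothelial markers, and Nampt had 0.73 with monocyte and macrophage, 0.71 with mesothelial, 0.59 with endothelial and -0.62 with acinar markers. These marker correlations were not repeated without BALB/c control replicate 2, the array with the high acinar signal. Between members, leaving it out moved the deviations of Adipoq with Nampt from -0.26 to 0.54 and of Lep with Adipoq from 0.17 to 0.66.

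A list of 10 tested genes held receptors and binding partners of these factors, and also the insulin receptor Insr. Of these 10, 2, 2, 0, 3 and 3 rose and 5, 5, 3, 4 and 6 fell in the 5 responses. Their medians ran from -0.52 to -0.21. Over all genes 35.5%, 36.5%, 29.8%, 43.9% and 47.4% were called, and 17.2%, 18.0%, 13.4%, 22.2% and 25.0% were called lower. The 3 of 10 called in DBA at day 3 all fell, where 13.4% of all genes were called lower. Cdh13, the T-cadherin that binds adiponectin, fell in all 5 (-1.34 to -0.66). Insr also fell in all 5 (-0.83 to -0.60), but insulin is not among the factors described here. Adipor2 fell in 4, from means of 12426 ± 314 to 4902 ± 1497 in DBA at day 18 (-1.39 ± 0.20, adjusted p = 2.0e-06), and Adipor1 fell in 4 by less (-0.51 to -0.38). The leptin receptor Lepr fell in BALB/c and the F1 at day 3 (-0.71 and -0.72) and in DBA at day 18 (-0.77). Tlr4, on which resistin has been reported to act and which responds to endotoxin, rose in 4 responses (0.63 to 1.23), and Cap1, named as a resistin receptor, in 4 (0.68 to 0.81).

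Of 9 leptin signalling genes, 4 rose in every response, where 2131 to 2911 of all 13016 genes were called higher. Of the 9, 0, 1, 0, 0 and 2 fell. The medians of the 9 ran from 0.01 to 0.25, and 29.8% to 47.4% of all genes were called in either direction. The same 4 genes rose each time: Jak2 (0.53 to 1.28), Stat3 (0.70 to 1.05), Ptpn1 (1.04 to 1.79) and Socs3, the feedback inhibitor that many cytokines induce (2.33 to 3.25). Socs3 went from a mean of 271 ± 72.19 to 2742 ± 462 in BALB/c at day 18. Prkaa2, a catalytic subunit of AMP-activated kinase, fell in the F1 (-1.22 ± 0.36) and in DBA at day 18 (-1.56 ± 0.36).

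Cfd has no value here, but the alternative complement pathway it starts was measured. Of 8 tested genes, 6, 7, 6, 7 and 8 rose and 0 fell, against 29.8% to 47.4% of all genes called, with medians of 2.37, 2.08, 2.21, 2.22 and 2.55. Over all 13016 genes, 2131 to 2911 were called higher. Cfb, the factor that adipsin cleaves, rose from a mean of 1346 ± 379 to 11459 ± 2318 in DBA at day 18 (3.09 ± 0.32, adjusted p = 1.6e-08). The anaphylatoxin receptors C3ar1 (2.00 to 3.37) and C5ar1 (2.53 to 3.25) and properdin, Cfp (1.43 to 1.89), rose in all 5. The list includes Itgam, which is also 1 of the 8 monocyte and macrophage markers.

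**Figure D4:**
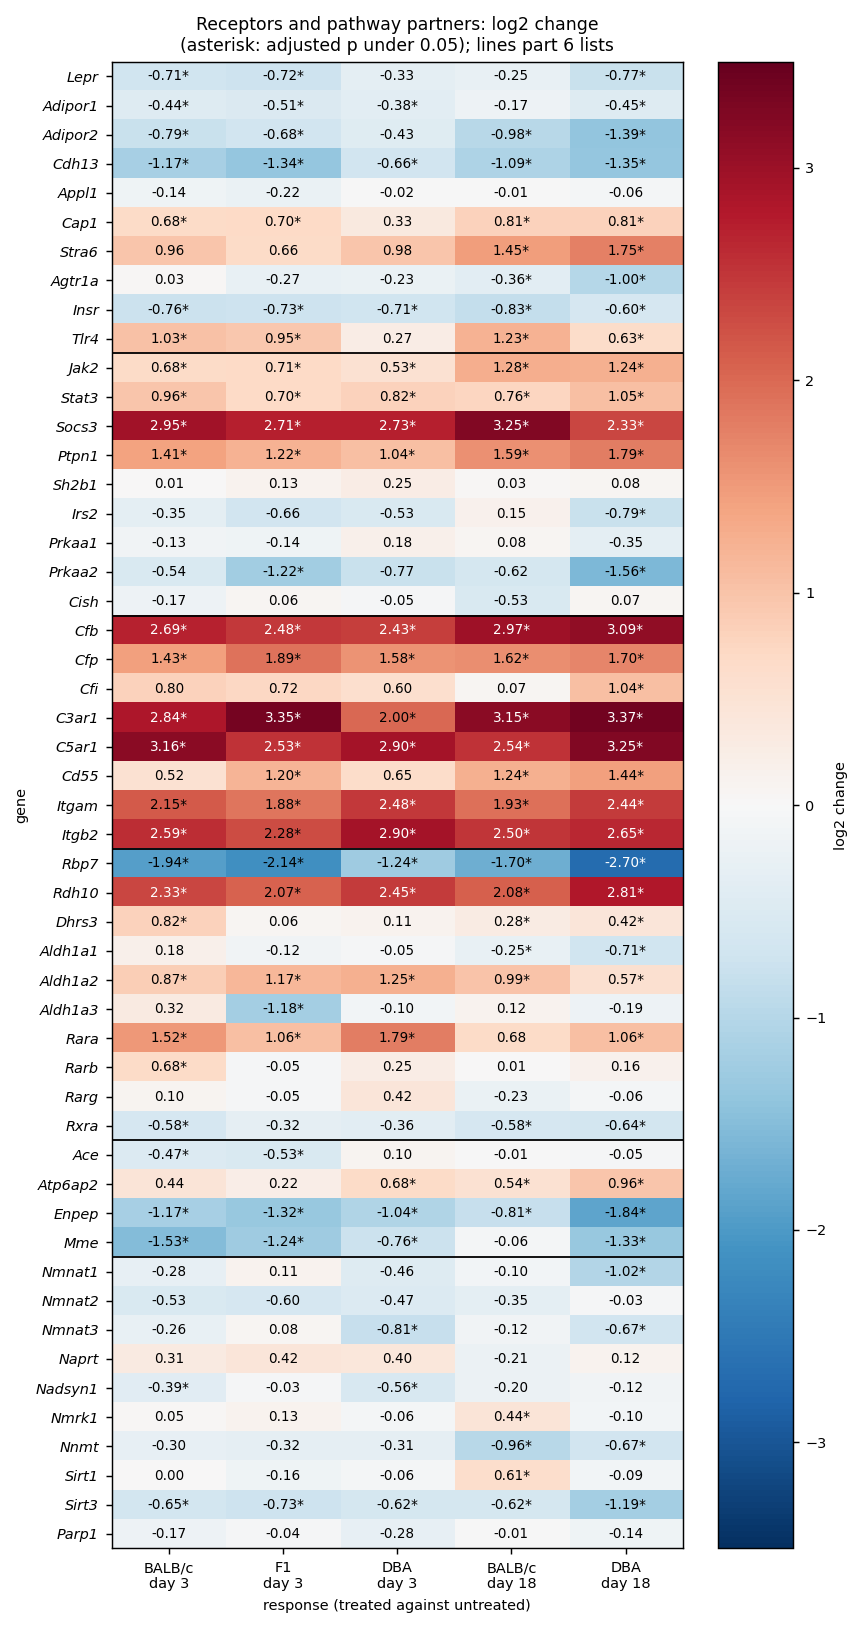
Change on the log2 scale of every tested gene of 6 lists in the 5 responses; asterisks mark an adjusted p under 0.05, and lines part receptors, leptin signalling, complement, retinoid handling, renin-angiotensin and NAD salvage genes (Stra6 and Agtr1a, each in 2 lists, are drawn once). The complement block is positive throughout, up to 3.37, while Cdh13 and Insr are called lower in every column.

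Other adipokines went both ways. Of 14 tested, 6, 6, 6, 6 and 7 rose and 3, 3, 0, 4 and 4 fell, with medians from 0.23 to 0.86, against 29.8% to 47.4% of all genes called. Among all 13016 genes, 2131 to 2911 were called higher. Il6 (2.65 to 4.53), Ccl2 (2.46 to 4.90), Lcn2 (3.07 to 4.28), Metrnl (2.05 to 2.67), Tnf (1.91 to 2.70) and Il18 (0.52 to 1.21) rose in all 5 responses. These are made by immune cells and others as well as by fat. Il6 was dim in controls, with means from 6.6 to 18.83, so its log2 change depends on the offset. Sfrp5, a WNT inhibitor secreted by fat cells, fell in 4 responses (-1.10 to -0.78), and Angptl4, which inhibits lipoprotein lipase, fell in the F1 (-1.14), BALB/c at day 18 (-0.69) and DBA at day 18 (-1.48). Of 7 tested C1q/TNF-related genes, the family of adiponectin (medians from -0.37 to -0.00), C1qtnf9 (-1.63 to -0.86) and C1qtnf12 (-2.25 to -0.84) fell in all 5, whereas C1qtnf1 (0.52 to 1.01) and C1qtnf6 (1.31 to 2.14) rose in all 5.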

How the data were processed

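The 32 arrays, of the Affymetrix type Mouse Genome 430 2.0, each hold labelled copies of total mesenteric RNA. The deposited values are intensity on a linear scale, made by the authors with GCOS and MAS5, per the submitters' processing notes, which name no version. Every array has a 2% trimmed mean of 500, as tested on the file. Array number limits the precision. Platform annotation gave 1 symbol to 34958 of 45101 probe sets, several to 932 and none to 9211. Values were taken as log2(signal + 24.9), the 25th percentile. A gene needed a signal above 104, the median, on 3 or more arrays and was read from its probe set with the highest mean. All 32 arrays were fitted by group and run in limma 3.58.1 (R 4.3.3) with lmFit and eBayes with trend, and p-values were adjusted by Benjamini-Hochberg. Intervals are 1.96 SE. On simulated data with 13016 genes, changes of 1 log2 unit were recovered in 76% (BALB/c day 3), 72% (F1), 66% (DBA day 3), 86% (BALB/c day 18) and 73% (DBA day 18) of cases, and changes of 2 in 95% or more. The false share of calls ran from 3.43% (F1) to 7.65% (DBA day 18). Only 100 random genes were given each size of change, far fewer than were called in the data. The rates therefore need not hold for these data or for single members. Members and lists were chosen with earlier results of these data known. All members were named, and of each list up to 4 genes with the largest change in a response; a few others were named after their values were seen. Alternatives changed the offset, filter, normalization, fit, gene value, a term for Xist, the F1 controls and single arrays. Leaving out the acinar-high arrays was added after seeing the data. The promoter windows and motif counts are RefSeq's on GRCm38.p6.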

Additional observations from a re-analysis of the deposited data

Results flagged for a closer look

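On BALB/c control replicate 2 of the BALB/c day 18 run, Adipoq was at 57721, far above its 3 run mates at 22038 to 25116. On the same array Nampt was at 791, far below the 1852 to 2056 of those mates. A gap test flagged these 2 of the 28 member groups large enough to examine, and chance alone flags about 1 in 20, so 2 lie near that rate. Both flags come from this 1 array, and some of the 28 groups share arrays, so they are not independent. The array also had a summed acinar signal of 713922 and correlated at best at 0.863 with any other array; whether that bears on the 2 values was not tested. Without it the members called in BALB/c at day 18 stayed at 6.

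Sncg fell in DBA at day 18 and not detectably at day 3, and the difference between the responses was itself called (-3.28 ± 0.65, adjusted p = 0.00388 by limma).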

How the results depend on the processing

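The counts of members called moved as follows. Between the DBA times the count of 1 became 2 with quantile normalization, 3 in a separate fit and 2 as a mean over probe sets. Between the BALB/c control runs the count of 2 became 1 with median centring, a separate fit, an ordinary linear model or the Xist term. For the F1 the count of 3 became 5 in a separate fit and 1 with the Xist term, whose size does not come from the F1 arrays. A separate fit also gave 1 in place of 0 between BALB/c and DBA at day 3, and 0 in place of 1 between DBA and BALB/c controls. Leaving out 1 array gave 2 to 5 in BALB/c at day 3, 0 to 4 in the F1, 0 to 2 in DBA at day 3, 5 to 6 in BALB/c at day 18, 4 to 6 in DBA at day 18, 1 to 2 between DBA times, 0 to 1 between control strains and 1 to 3 between BALB/c control runs. Upward, the BALB/c day 3 count became 7 with the stricter filter, a separate fit or the Xist term, and the DBA day 3 count 3 with the stricter filter, a separate fit or the mean over probe sets. Without the acinar-high arrays, a setting chosen after seeing the data, 4 members were called in BALB/c at day 18, and a separate fit called 3423 genes there in place of 5715.

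Signs turned for Adipoq in DBA at day 3 (-0.11 with quantile normalization and -0.01 with median centring, against 0.04; -0.06 to 0.09 with 1 array left out), Agt there (-0.11, and -0.57 to 0.26 with 1 array left out), Sncg there (-0.29, and -0.47 to 0.07), Nampt in BALB/c at day 18 (-0.25 with probe set 1448607_at, against 0.43) and Retn between DBA times (-0.41, and -0.83 to 0.40 with 1 array left out, 0.40 being without DBA day 18 replicate 2). None of these 5 was called, and the cause of these moves was not tested. No paired analysis was possible because the labels give no replicate numbers shared by treated and control arrays. In the simulated data, with far fewer changed genes than were called here, 66% to 86% of changes of 1 log2 unit were recovered. Smaller changes were not simulated.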
